A study of Mus musculus with 72 samples.

Results

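The circadian clock genes described here were 10 transcripts found by their symbols in every count table: Arntl, Npas2, Clock, Per1, Per2, Per3, Nr1d1, Nr1d2, Dbp and Tef. They were 10 of the 35976 symbols listed in 6 of the tables and 10 of 25239 in the E18.5 testis table. The circadian clock is a transcription loop that runs in nearly every cell. CLOCK, or its relative NPAS2, pairs with BMAL1 (the product of Arntl) and activates genes that carry E-boxes, among them Per1, Per2, Per3, Nr1d1, Nr1d2, Dbp and Tef. PER proteins then inhibit that activator, and the nuclear receptors REV-ERBα and REV-ERBβ (Nr1d1 and Nr1d2) repress Arntl, Npas2 and Clock. In mouse liver Arntl, Npas2 and Clock are highest at the opposite time of day from Dbp, the Per genes and the REV-ERB genes, whereas the testis is known for a weak or non-cycling clock.

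The study asked whether conception by IVF alters the tissues of male mice and of their offspring. F1 males came from CF-1 mothers and SJL/B6 fathers that carried 1 copy of the CAG-EGFP transgene, in both groups. Naturals were conceived by mating, with no embryo transfer, whereas IVF males came from superovulated eggs fertilized in vitro, grown to blastocysts and placed in pseudopregnant CF-1 females. Pups of both kinds that were kept to adulthood were delivered by caesarean section, Naturals at E18.5 and IVF pups somewhat later, and raised by foster mothers. F1 testis was taken at E18.5 (4 Natural, 6 IVF), at 12 weeks (5 Natural, 5 IVF) and at 39 weeks (4 Natural, 6 IVF). F2 animals were conceived by mating Natural or IVF sires, aged 12 weeks, with wild-type CF-1 dams, so the F2 labels Natural and IVF refer to how the sire was conceived and no F2 embryo was cultured. F2 tissue was taken at 12 weeks from testis (5 Natural, 7 IVF), male liver (5 Natural, 5 IVF), female liver (5 Natural, 6 IVF) and ovary (4 Natural, 5 IVF). The hour of tissue collection is not given in the sources used here. The series' design text counts fewer female livers than the labels, which were followed here. Each F1 age drew on several litters, but the labels do not say which libraries share a litter or a sire, nor which tissues came from the same animal, so the p-values below measure only the spread between these libraries.

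Promoter letters that match the elements of the loop are shown first, since the results turn on genes placed on its opposite arms. RefSeq windows from 250 bases before to 50 bases after the transcription start (GRCm38.p6) were matched for 9 of the 10 genes, in 14 windows. Both strands were searched for the E-box CACGTG and its variant CACGTT, the D-box TTATGTAA and its variant TTACGTAA, and the REV-ERB and ROR element as TAGGTCA or TGGGTCA. Each 30-base stretch below is written 5′ to 3′ on the strand of its gene, with the matched letters in capitals.
Per3, 205 bases before the start, chr4:151044852-151044881, minus strand: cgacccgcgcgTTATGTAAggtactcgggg
Per3, 158 bases before the start, chr4:151044805-151044834, minus strand: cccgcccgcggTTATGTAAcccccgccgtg
Tef, first start, 127 bases before it, chr15:81802535-81802564, plus strand: tgctgtggctcCACGTGctgcagctggcac
Tef, second start, 138 bases before it, chr15:81811265-81811294, plus strand: acctggcccagCACGTGtctacatcgtttg
Per1, first start, 166 bases before it, chr11:69098772-69098801, plus strand: gcacccaagtcCACGTGcagggatgtgtgt
Nr1d1, 28 bases before the start, chr11:98775387-98775416, minus strand: gcacagatctcAACGTGccggctgctggaa
Arntl, second start, 31 bases after it, chr7:113207530-113207559, plus strand: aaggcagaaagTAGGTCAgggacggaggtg
The Per3 window thus held 2 D-boxes, the element bound by DBP and TEF, and both Tef windows and 1 of the 2 Per1 windows held the E-box. Each match is a description of the letters, not a tested site. The letters AACGTG in Nr1d1 are the variant E-box read on the other strand. Among 32851 windows of the same length, 7.15% held CACGTG, 4.68% CACGTT, 0.938% TTATGTAA, 0.119% TTACGTAA, 2.61% TAGGTCA and 3.98% TGGGTCA. The second Arntl start lies inside the gene, and the window of its first start held no match. None was found in the windows of Npas2, Clock, Nr1d2 and Dbp.

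The defining markers of each tissue were present, with germ cell markers summing to 7444 to 18347 CPM (counts scaled to a common normalized library size) in the adult testes and ovary markers to 1572 to 2416 CPM in the ovary. Markers of other tissues were not absent. Germ cell markers summed to 0.394 to 95.7 CPM in male liver Naturals and 0 to 4.35 in male liver IVF. Hepatocyte markers summed to 1.33 to 474 CPM in E18.5 testis Naturals and 0.464 to 15.8 in E18.5 testis IVF. Their bearing on the clock gene levels was not tested. Total counts per library ran from 543745 to 90441392. In the male liver, IVF replicate 3 held only 543745 counts and IVF replicate 2 held 2137355. In the female liver, IVF replicates 5 and 6 held 90441392 and 77714916. Both livers separated by conception in the GC content of the transcripts they favoured: Spearman's rho between GC content and a library's deviation from the mean over its tissue was 0.44 to 0.53 in male liver Naturals, -0.49 to -0.09 in male liver IVF, -0.64 to -0.34 in female liver Naturals and 0.33 to 0.66 in female liver IVF. The groups also separated in rho in the E18.5 testis (0.07 to 0.27 in Naturals, -0.26 to -0.09 in IVF) and the 39-week testis (-0.01 to 0.36 in Naturals, -0.33 to -0.02 in IVF). In the livers, summed over 5 hepatocyte markers, the level ran from 69718 to 94702 CPM in male Naturals and from 85590 to 138338 in male IVF. In females it ran from 156241 to 240435 in Naturals and from 102359 to 122418 in IVF. The 4 erythroid markers summed to 154 to 359 CPM in male Naturals, 344 to 875 in male IVF, 445 to 750 in female Naturals and 144 to 365 in female IVF. The members of the hepatocyte and erythroid lists did not all move together. In male IVF Hbb-bs was called higher (log2 fold change 1.23) and Hbb-bt lower (-1.26). In female IVF Hbb-bs (-1.30) and Hba-a1 (-0.71) were called lower, and Hbb-bt was 0.59, not called. Of the hepatocyte markers Alb (0.60) and Fgb (0.83) were called higher in male IVF, with Apoa1 at -0.56, not called. In female IVF 3 of the 5 were called lower, with Apoa1 at 0.09, not called. The 5 Kupffer cell and leucocyte markers summed to 57.3 to 101 CPM in male Naturals and 62.7 to 135 in male IVF, where Adgre1 (log2 fold change 0.82) and Cd68 (0.60) were called higher with no overlap, and to 61.6 to 133 in female Naturals and 67.0 to 137 in female IVF, where none was called. Of 5 endothelial and stellate cell markers none was called in males and Lrat was called lower in females (-0.93, no overlap). Xist, the X inactivation RNA, was called higher in male IVF (2.45, no overlap). Its mean was 5.51 ± 7.76 CPM (SD) there, against 0.510 ± 0.135 in male Naturals and 360 ± 49.6 and 218 ± 38.0 in female Naturals and IVF. The male IVF libraries were thus very uneven in Xist, and their mean includes the shallow replicates 2 and 3. Over all genes tested in the male liver, 31.1% were called and 27% did not overlap. In the female liver these shares were 39.4% and 29.4%. The part of depth, GC content and cell makeup in the liver results was not tested beyond the values given beside them. In bulk tissue, fewer cells of a type and less RNA per cell cannot be told apart.

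The clock genes differed in where they were abundant, here compared as CPM per kilobase of transcript. Per1, a repressor of the loop, had its highest level in the adult testis, at 48.5 ± 4.31 to 56.5 ± 5.18 CPM per kilobase (SD, n = 5 and 7). The ovary followed at 23.8 ± 8.48 in Naturals (SD, n = 4) and 28.1 ± 5.51 in IVF (SD, n = 5), about level with the E18.5 testis at 26.9 ± 2.14 (SD, n = 4) and 23.7 ± 3.11 (SD, n = 6). Per1 was lowest in the livers, where its group means ran from 2.22 ± 2.11 to 4.13 ± 3.01. The ranges of ovary and E18.5 testis overlapped, and so did those of the 2 livers.

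Nr1d1, which encodes REV-ERBα, was higher in the livers and the ovary than in the testes of any age. Its group means were 35.7 ± 14.9 to 49.0 ± 25.1 CPM per kilobase in the livers and 34.0 ± 15.5 to 35.7 ± 12.4 in the ovary, with overlapping libraries, against 5.79 ± 2.07 to 9.50 ± 1.38 in the testes. Dbp, a PAR bZIP activator that acts on D-boxes, was likewise lowest in the testes, at 3.79 ± 0.615 to 7.99 ± 2.74. Its ovary means of 37.1 ± 14.8 and 39.0 ± 20.5 lay within the range of its liver means, 17.4 ± 10.5 to 49.5 ± 38.6. Tef, a second PAR bZIP factor, was highest in the E18.5 testis at 63.3 ± 3.19 in Naturals and 61.9 ± 8.0 in IVF. Its ovary means were 31.2 ± 3.39 and 32.8 ± 3.42, and its adult testis means were 10.4 ± 1.00 to 13.2 ± 0.926.

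The activators had lower means in adult testis and liver than in E18.5 testis and ovary. Arntl, which encodes BMAL1, had means of 5.67 ± 1.09 and 5.32 ± 1.0 CPM per kilobase in the E18.5 testis and 4.26 ± 1.24 and 4.54 ± 1.35 in the ovary, with overlapping libraries, against 1.16 ± 0.196 to 1.55 ± 0.249 in the adult testes. In the livers the means of Arntl ran from 0.729 ± 0.838 to 2.14 ± 2.08, and the highest male liver Natural, at 4.63, lay within the range of the ovary. Clock was highest in the E18.5 testis, at 8.82 ± 0.296 in Naturals and 11.8 ± 1.11 in IVF, and in the ovary, at 9.48 ± 0.721 and 9.10 ± 0.518. Its means ran from 2.04 ± 0.906 to 4.13 ± 1.15 in the livers and from 2.84 ± 1.24 to 4.64 ± 0.331 in the adult testes. Npas2 had no group mean above 1.08 ± 0.28, reached in ovary IVF. The plot of clock gene levels by tissue shows these orders for all 10 genes.

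**Figure D1:**
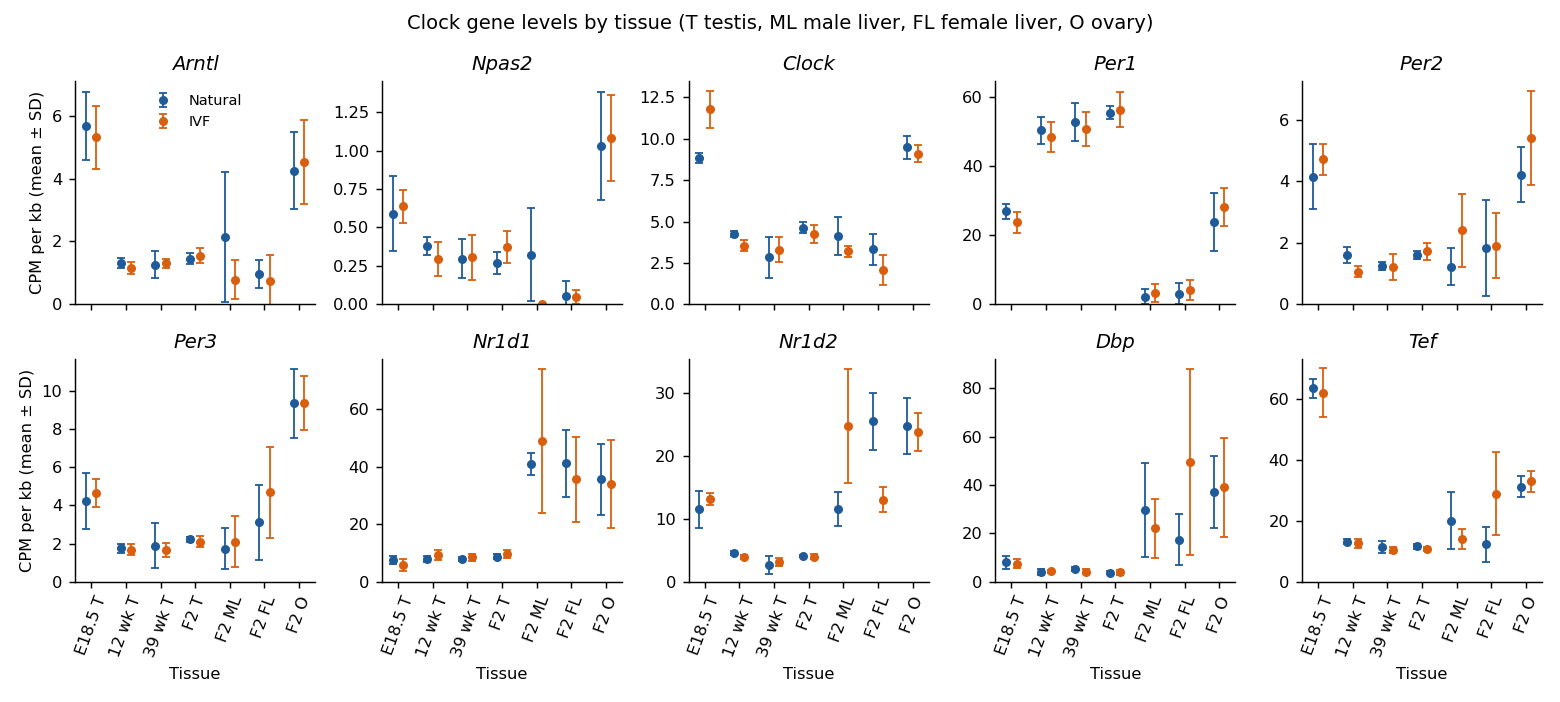
Level of each clock gene in CPM per kilobase of transcript (y axis, a separate scale for each gene) in the 7 tissues (x axis), as the mean of the libraries with SD as the bar, Natural in blue and IVF in orange. Bars that would run below 0 end at 0. Per1 was highest in the adult testes, Nr1d1 and Dbp in liver and ovary, and Tef in the E18.5 testis.

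In the F2 male liver, 2 of the 9 clock genes tested were called, both higher in IVF: Nr1d2 and Per2. A call required an adjusted p under 0.05 in edgeR's quasi-likelihood test and a change over 1.5-fold. Over all 11973 genes tested, 31.1% were called, a larger share than 2 in 9, and 13.9% were called higher. The groups overlapped for 8 of the 9 clock genes tested and did not for Nr1d2. At an unadjusted p under 0.05 the same 2 clock genes passed, against 44.5% of all genes. The median log2 fold change was 0.27 over the 9 clock genes and -0.01 over all genes.

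Nr1d2 (chr14:18204056-18239106), the REV-ERBβ gene, measured 50.7, 41.0, 45.4, 72.1 and 61.6 CPM in the 5 Naturals and 93.1, 190, 86.8, 107 and 101 CPM in the 5 IVF livers. Every IVF liver lay above every Natural, a separation shown by 27% of all genes tested in this tissue. The log2 fold change was 1.10 (SE 0.22, edgeR adjusted p = 0.00161), and the gene remained called when any 1 library was left out. With the GC trend of each library removed it was 0.64 (SE 0.19, adjusted p = 0.0295), still a call.

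Per2 (chr1:91415977-91459351), a core repressor, measured 6.60, 4.04, 4.04, 12.6 and 8.50 CPM in Naturals and 10.9, 21.8, 4.82, 19.9 and 12.5 CPM in IVF. Natural replicates 2 and 3 were low, as was IVF replicate 3 with 2 counts, and the groups overlapped. On the log2 scale, IVF minus Natural was 1.05 (SE 0.34, edgeR adjusted p = 0.0268). The call was lost without Natural replicate 1, 2 or 3 or without IVF replicate 2 or 4, with adjusted p-values up to 0.0849, and also without the 2 shallow IVF libraries (adjusted p = 0.067).

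The activators varied widely between libraries of a group. Arntl (chr7:113178471-113314126) measured 2.39, 12.5, 13.8, 1.56 and 1.68 CPM in Naturals and 1.42, 0, 4.82, 3.31 and 2.02 CPM in IVF. Natural replicates 2 and 3 stood well above the other 8 livers. The value of 0 was in IVF replicate 2, whose depth allows up to 3.73 CPM, taking 3 read pairs (6 counts) as the limit. In IVF replicate 3 that limit is 14.5 CPM, and its 4.82 CPM were 2 counts. The log2 fold change of -1.61 had an SE of 0.78 and did not pass the test (adjusted p = 0.132).

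Npas2 (chr1:39193702-39363240), the relative of CLOCK, had too few counts for the test. It had 10, 46, 55, 6 and 8 counts in the 5 Naturals and none in the 5 IVF livers together, which allows up to 0.184 CPM over the group, against 0.629, 2.26, 3.17, 0.120 and 0.673 CPM in the Naturals. The 2 highest Naturals were again replicates 2 and 3. The limit lies above the lowest Natural, so whether the groups overlap cannot be read. Such limits cover counting error only.

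Clock (chr5:76209868-76305603) followed the same libraries on a smaller scale. It measured 31.7, 53.5, 51.4, 32.8 and 31.7 CPM in Naturals and 30.9, 34.8, 33.7, 29.9 and 26.2 CPM in IVF, so that only Natural replicates 2 and 3 lay above the IVF range. IVF minus Natural on the log2 scale was -0.40 (SE 0.20, adjusted p = 0.128). After removal of the GC trend it was -0.86 (SE 0.19, adjusted p = 0.00669), which is a call.

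The other repressors and the PAR bZIP factors did not pass the test. Per1 (chr11:69095108-69109965) measured 8.49, 1.53, 2.02, 25.2 and 14.6 CPM in Naturals and 9.30, 21.1, 0, 31.5 and 14.7 CPM in IVF, and Per3 (chr4:150997018-151044707) measured 12.3, 3.99, 3.23, 17.1 and 15.2 CPM against 15.3, 9.95, 0, 20.9 and 16.4 CPM. Both zeros were in IVF replicate 3, whose depth allows up to 14.5 CPM. Natural replicates 2 and 3 were the lowest Naturals for both genes, the reverse of their rank for Arntl. The log2 fold changes were 0.73 (SE 0.80) for Per1 and 0.53 (SE 0.50) for Per3.

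Dbp (chr7:45705100-45710203) measured 63.2, 16.5, 18.52, 83.5 and 92.4 CPM in Naturals and 54.7, 38.6, 9.64, 31.6 and 68.2 CPM in IVF. Tef (chr15:81802673-81826863) measured 93.7, 47.1, 45.1, 122 and 132 CPM in Naturals and 56.5, 58.5, 43.4, 82.2 and 65.7 CPM in IVF. For these genes too, Natural replicates 2 and 3 lay far below the other 3 Naturals. The log2 fold changes were -0.31 (SE 0.56, adjusted p = 0.706) for Dbp and -0.49 (SE 0.29, adjusted p = 0.212) for Tef, and that of Dbp turned to 0.85 (SE 0.52) after removal of the GC trend.

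Nr1d1 (chr11:98767932-98775377) measured 106, 103, 124, 103 and 120 CPM in Naturals and 176, 169, 101, 28.5 and 193 CPM in IVF. Of the IVF livers, 3 lay above every Natural and 2 lay below, with a log2 fold change of 0.27 (SE 0.38, adjusted p = 0.616). Of the exon bases of Nr1d1, 8.55% lie opposite exons of Thra, and 18% of those of Dbp lie opposite Sphk2. Whether counting used strand is not stated, so reads of these pairs may be mixed.

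**Figure D2:**
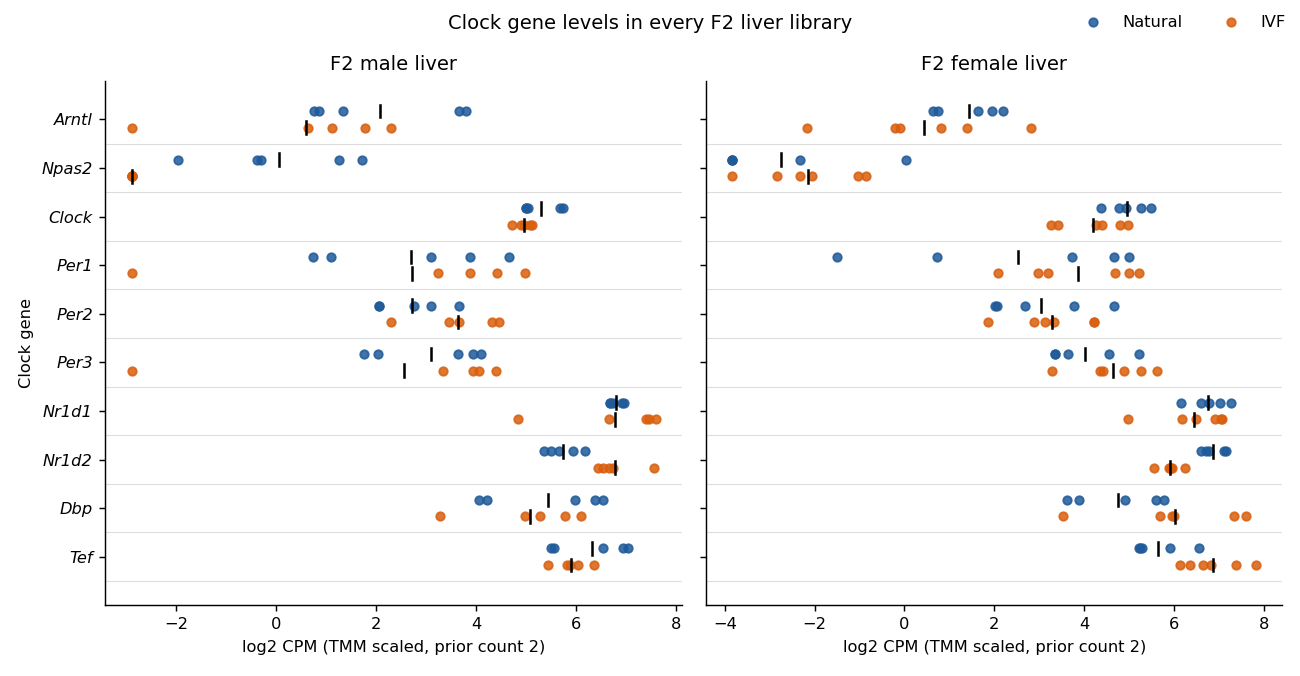
Level of each clock gene (y axis) in every F2 liver library as log2 CPM with a prior count of 2 (x axis), male liver at left and female liver at right, with Natural in blue above IVF in orange and a black tick at each group mean. For Nr1d2 the groups did not overlap in either liver, and IVF was higher in males and lower in females.

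In the F2 female liver, Nr1d2 fell and Tef rose in IVF, again 2 of the 9 clock genes tested. Of all 12525 genes tested 39.4% were called, 21.6% higher and 17.8% lower. The median log2 fold change was -0.01 over the 9 clock genes and -0.01 over all genes. The groups overlapped for all clock genes but Nr1d2.

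Nr1d2 measured 143, 110, 105, 96.8 and 139 CPM in Naturals, and in the 6 IVF livers it ran from 46.9 to 75.6 CPM with a median of 60.5. Every IVF liver lay below every Natural, as was the case, in either direction, for 29.4% of all genes tested. Its IVF against Natural log2 fold change was -0.97 (SE 0.14, edgeR adjusted p = 7.33e-05). It was -0.30 (SE 0.14, adjusted p = 0.137) once the GC trend was removed, and no longer a call.

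Tef measured 38.1, 94.8, 37.3, 39.1 and 60.2 CPM in Naturals and 70.2 to 228 CPM in IVF, with a median of 106. The groups overlapped through Natural replicate 2, which exceeded 2 of the IVF livers, and the highest values were those of IVF replicates 5 and 6, at 167 and 228 CPM. The log2 fold change was 1.22 (SE 0.35, edgeR adjusted p = 0.0125). It was 0.84 (SE 0.32, adjusted p = 0.0736) with the GC trend removed and 0.78 (adjusted p = 0.064) without the 3 deepest libraries, Natural replicate 5 and IVF replicates 5 and 6.

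Dbp measured 30.2, 48.4, 12.1, 14.7 and 54.7 CPM in Naturals and 11.6 to 194 CPM in IVF, with a median of 63.0. IVF replicate 1 held the lowest value of all 11 livers and IVF replicates 5 and 6 the highest, at 162 and 194 CPM. The log2 fold change of 1.48 (SE 0.70) did not pass the test (adjusted p = 0.108). Without IVF replicate 1 it was 1.71 (SE 0.55, adjusted p = 0.0289), a call.

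The activators showed the reverse rank of libraries. Arntl measured 3.05, 1.61, 4.52, 3.79 and 1.49 CPM in Naturals and 0.152 to 6.97 CPM in IVF, with a median of 1.27, and here IVF replicate 1 held the highest value and IVF replicate 6 the lowest. Clock measured 27.4, 20.8, 44.6, 38.2 and 30.3 CPM in Naturals and 9.48 to 31.5 CPM in IVF, with a median of 20.2, and its extremes in IVF fell on the same pair of libraries. The log2 fold changes were -0.38 (SE 0.76, adjusted p = 0.703) for Arntl and -0.70 (SE 0.31, adjusted p = 0.0814) for Clock. Without IVF replicate 1, Clock fell by 0.87 on the log2 scale (SE 0.30, adjusted p = 0.027).

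Npas2 was close to undetected in the female liver, with 0, 0, 0, 6 and 4 counts in Naturals and 0 to 17 counts in IVF. Its levels of 0 to 0.946 CPM were too low for the test.

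The Per genes and Nr1d1 did not pass the test in the female liver. Per1 measured 31.7, 25.3, 0.282, 1.58 and 13.2 CPM in Naturals and 4.15 to 37.3 CPM in IVF (median 17.3). Per2 measured 6.40, 25.5, 3.95, 4.10 and 13.6 CPM in Naturals and 3.55 to 18.6 CPM in IVF (median 9.31). Per3 measured 12.5, 37.2, 10.2, 10.1 and 23.6 CPM in Naturals and 9.62 to 49.4 CPM in IVF (median 25.3). In all 3, Natural replicates 3 and 4 were the lowest Naturals. Nr1d1 measured 96.9, 70.9, 129, 110 and 154 CPM in Naturals and 31.4 to 135 CPM in IVF (median 106). The log2 fold changes were 0.43 (SE 0.87) for Per1, -0.01 (SE 0.54) for Per2, 0.54 (SE 0.46) for Per3 and -0.21 (SE 0.32) for Nr1d1, with adjusted p-values from 0.355 to 0.989.

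**Figure D3:**
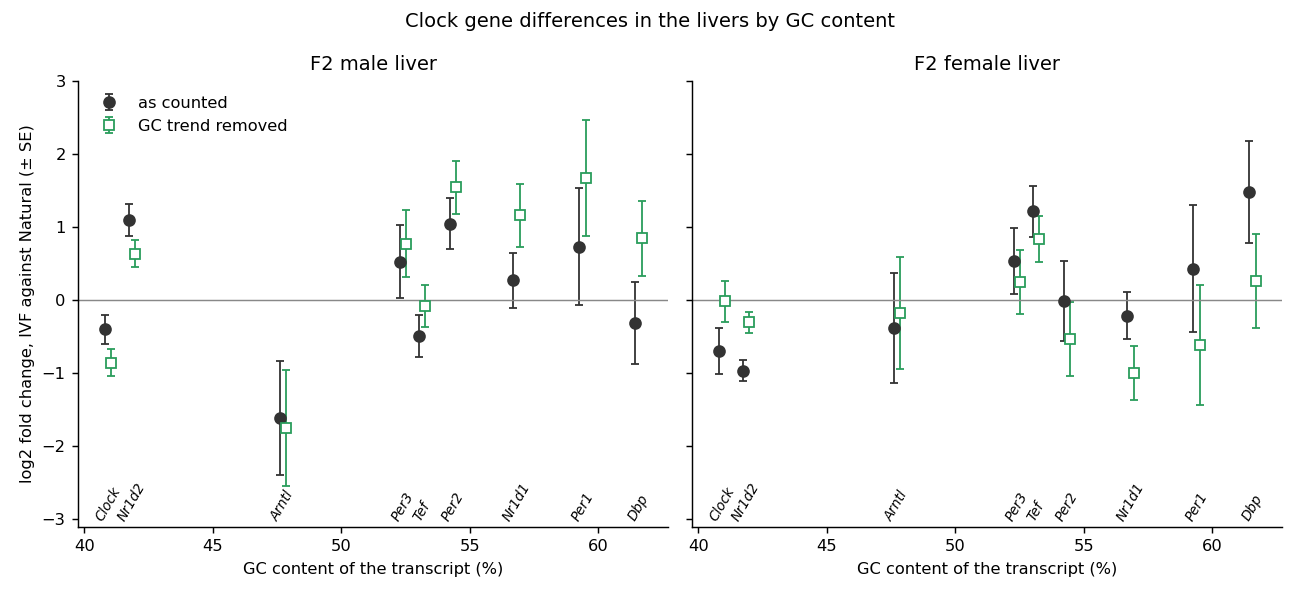
IVF against Natural log2 fold change (y axis, ± SE) of the 9 clock genes tested in each F2 liver by the GC content of the transcript (x axis, percent), as counted (filled circles) and after the GC trend of each library was removed (open squares). In the male liver Dbp moved from -0.31 to 0.85, and in the female liver Nr1d2 moved from -0.97 to -0.30.

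The effect of the sire's conception was compared between sons and daughters in 1 fit of all 21 livers. The interaction term passed the test (adjusted p under 0.05) for 2 of the 9 clock genes, against 54% of all 13073 genes tested. For Nr1d2 the female effect minus the male effect was -2.05 (SE 0.27, adjusted p = 4.46e-07) on the log2 scale, and for Tef it was 1.71 (SE 0.51, adjusted p = 0.00767). Nr1d2 was thus called in opposite directions in sons and daughters, whereas Tef was called in daughters and not in sons. For Dbp the difference was 1.79 (SE 0.93, adjusted p = 0.115). The other 6 differences lay between -1.05 for Per2 and 1.25 for Arntl, with adjusted p-values from 0.227 to 0.991.

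With the GC trend removed, the interaction passed for Nr1d2 (-0.97, SE 0.24, adjusted p = 0.00266), Per2 (-2.11, SE 0.70, adjusted p = 0.0232) and Nr1d1 (-2.24, SE 0.62, adjusted p = 0.00881), and Tef no longer passed (0.86, SE 0.47, adjusted p = 0.163). Under this setting the interaction passed for 4547 of all 13073 genes tested. The transcripts of Clock and Nr1d2 have the lowest GC content of the 10 genes, 40.9% and 41.8%, and those of Per1 and Dbp the highest, 59.4% and 61.6%.

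Within a group, the liver libraries differed widely in some of the clock genes. The SD of log2 CPM within groups lay above percentile 90 of all genes tested for Per1, Per3 and Arntl in the male liver (SD 2.57, 2.31 and 1.80, at percentiles 99.8, 99.4 and 92.8) and for Per1, Arntl and Dbp in the female liver (SD 2.10, 1.34 and 1.26, at percentiles 99.7, 93.9 and 92.6). In the ovary Dbp did so (SD 0.80, percentile 92.4), and Nr1d1 came next at percentile 87.4. In the 4 testis tables none of the 10 genes did, and the highest rank was that of Npas2 at 39 weeks, at percentile 86.7. The SDs of Per1 and Per3 in the male liver include the 0 counts of IVF replicate 3, and that of Arntl the 0 counts of IVF replicate 2. There 2 clock genes were above percentile 90 without IVF replicate 2 or 3, without Natural replicate 2 or 3, or with a prior count of 0.5. In the female liver 2 were without IVF replicate 1 or 6, and 4 without Natural replicate 1 or 3. Nr1d2, the clock gene with the smallest p between the groups in both livers, had a small spread within them, at percentiles 37.2 and 22.4. The remaining clock genes tested ran from percentile 21.8 (Clock) to 72.7 (Dbp) in the male liver. In the female liver they ran from 76.5 (Clock) to 89.4 (Per2). The ranks were not matched for level, and mean Per1 was 10.4 to 19.3 CPM in the livers against 226 to 264 in the adult testes. The part of counting noise in these ranks was not tested. The median SD over all genes tested was 0.50 in the male liver, 0.35 in the female liver and 0.23 in the ovary.

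**Figure D4:**
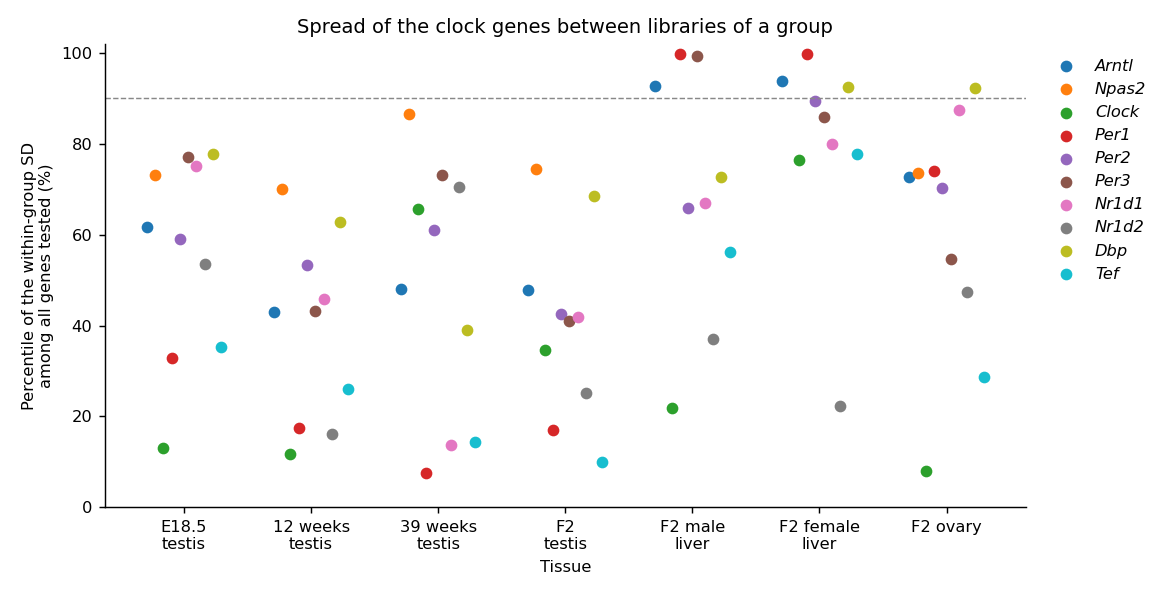
Percentile of each clock gene (colours) by its within-group SD of log2 CPM among all genes tested (y axis, percent) in the 7 tissues (x axis), with a dashed line at percentile 90. Points above the line were 3 in the male liver, 3 in the female liver, 1 in the ovary and none in the 4 testis tables.

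A ratio of 2 genes within a library does not depend on how libraries are scaled to one another, apart from the prior count. It can depend on a library's GC trend, since Arntl (47.7%) and Dbp (61.6%) differ in GC content. With that trend removed, the mean of Arntl minus Dbp moved from -3.35 to -2.64 in male liver Naturals and from -4.49 to -5.17 in male liver IVF. In the female liver it moved from -3.32 to -4.02 in Naturals and from -5.60 to -4.93 in IVF. Arntl minus Dbp on the log2 scale was -4.65, -0.40, -0.42, -5.62 and -5.67 in the male liver Naturals and -5.14, -8.16, -0.98, -3.20 and -4.98 in the male liver IVF group. In the female liver it was -3.28, -4.85, -1.41, -1.93 and -5.14 in Naturals and ran from -9.77 to -0.72 in IVF, with a median of -5.62. Male liver Naturals and female liver IVF therefore held libraries with Dbp near Arntl and libraries with Dbp far above it. In female liver Naturals Dbp lay above Arntl throughout, with values from -5.14 to -1.41. The groups of each liver overlapped. In male liver IVF the value of -8.16 rests on 0 counts of Arntl and that of -0.98, in replicate 3, on 2 counts of Arntl and 4 of Dbp, and the other 3 ran from -5.14 to -3.20. Highest minus lowest within a group, the difference spanned 3.72 to 9.05 log2 units in the other 3 liver groups, 2.10 to 3.08 in the ovary and 0.52 to 1.43 in the testes. Npas2 minus Per3, the other such pair, ran from -6.07 to -0.02 in male liver Naturals, whereas Npas2 was at 0 counts throughout the male liver IVF group.

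Across the libraries of each tissue, the deviation of Arntl from its group mean was compared with that of each other clock gene. There were 63 pairs of gene and tissue, each tested by exact permutation of libraries within groups, two-sided, with p-values adjusted over all 63. By Pearson's r 7 pairs had an adjusted p under 0.05, and 4 had one by Spearman's rho. Of the 7, 5 were in the female liver: Dbp (r = -0.91, exact p = 0.00102, adjusted p = 0.0214, rho = -0.92, adjusted p = 0.0354), Per3 (r = -0.89, exact p = 0.000208, adjusted p = 0.0131, rho = -0.85, adjusted p = 0.0354), Tef (r = -0.84, exact p = 0.00141, adjusted p = 0.0222, rho = -0.94, adjusted p = 0.0284), Per2 (r = -0.80, exact p = 0.000764, adjusted p = 0.0214, rho = -0.86, adjusted p = 0.0354) and Clock (r = 0.85, exact p = 0.00213, adjusted p = 0.0268, rho = 0.84, adjusted p = 0.0634). Female livers with more Arntl thus had more Clock and less Dbp, Per2, Per3 and Tef.

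In the male liver the pair with Nr1d2 passed (r = -0.92, exact p = 0.00368, adjusted p = 0.0386, rho = -0.83, adjusted p = 0.0656), and in the ovary the pair with Tef (r = -0.89, exact p = 0.00451, adjusted p = 0.0406, rho = -0.88, adjusted p = 0.0634). Male liver IVF replicate 2, with 0 counts of Arntl, also had the highest Nr1d2 of any male liver (190 CPM). For Dbp, r was -0.64 in the male liver (exact p = 0.0807, adjusted p = 0.282) and -0.73 in the ovary (exact p = 0.0698, adjusted p = 0.259). In the 4 testis tables no pair had an adjusted p under 0.05. Without the 2 libraries of each tissue farthest from the median of Arntl no pair passed the adjustment. In the female liver r was then -0.85 for Dbp, -0.87 for Per3, -0.88 for Tef and -0.82 for Per2, close to the values over all libraries. Their exact p-values were 0.0135, 0.00625, 0.00417 and 0.00972 before adjustment (adjusted p from 0.153 to 0.171). Of the 63 pairs, 13 had an exact p under 0.05 before adjustment, against 14 with all libraries. Fewer libraries also leave fewer permutations, so whether the adjusted result rests on those libraries cannot be read. In the male liver r for Dbp was then -0.91 (exact p = 0.00868, adjusted p = 0.153).

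**Figure D5:**
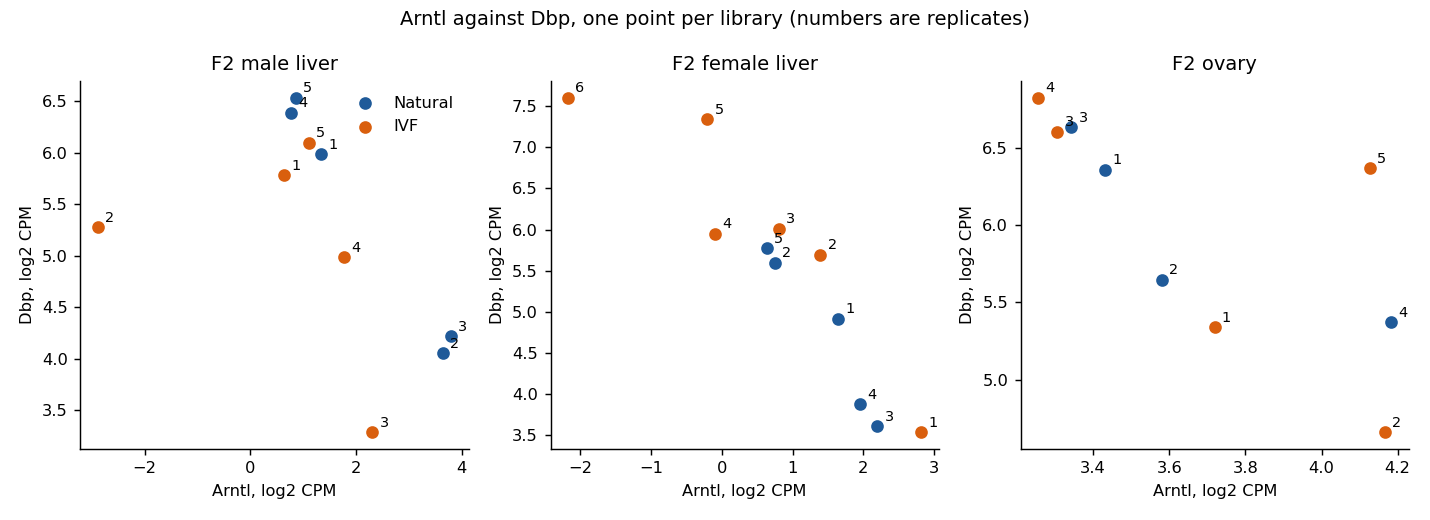
Dbp (y axis) against Arntl (x axis), both as log2 CPM, in every library of the F2 male liver, female liver and ovary, Natural in blue and IVF in orange, with replicate numbers beside the points. In the female liver the points ran from IVF replicate 1, highest in Arntl and lowest in Dbp, to IVF replicate 6, the reverse.

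The clock genes were also ranked among all 11824 genes tested in both livers by the likeness of their deviations from group means over the 21 livers, which differ in depth and GC trend, so the ranks are a description. By Pearson's r, Nr1d2 was the most opposite of all genes to Arntl (r = -0.85). From that end Dbp held place 9 (r = -0.75), Per2 place 11 (r = -0.74), Tef place 34 (r = -0.67) and Per3 place 199 (r = -0.54). Per1 held place 363 (r = -0.49) and Nr1d1 place 1987 (r = -0.31). By Spearman's rho Dbp (-0.83) was more opposite to Arntl than Nr1d2 (-0.80) and Per2 (-0.80). Among the genes most like Arntl were Als2cl, Tars, Gm29966 and Pnkd (r = 0.79 to 0.82). Clock held place 137 (r = 0.61). The genes most like Dbp were Homer2, Upp2, Pcsk4, Per2 and Thrsp (r = 0.84 to 0.90). Tef held place 10 (r = 0.80), Per3 place 18 (r = 0.75), Per1 place 144 (r = 0.63), Nr1d2 place 199 (r = 0.60) and Nr1d1 place 3359 (r = 0.33). From the opposite end of the Dbp order, Clock held place 7 (r = -0.83) and Arntl place 21 (r = -0.75).

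In the F2 ovary none of the 10 clock genes was called, as for all 16502 genes tested (0% called by edgeR, 1757 genes at an unadjusted p under 0.05, and 90 genes by DESeq2). None of the 10 had an unadjusted p under 0.05. Dbp measured 82.0, 49.997, 99.2 and 41.3 CPM in Naturals and 40.4, 25.2, 97.2, 113 and 82.6 CPM in IVF. Arntl measured 10.7, 11.9, 10.0 and 18.1 CPM in Naturals and 13.1, 17.8, 9.79, 9.45 and 17.4 CPM in IVF. Nr1d1 measured 115, 73.4, 135 and 64.4 CPM in Naturals and 49.6, 48.8, 110, 145 and 110 CPM in IVF. In both groups the libraries low in Dbp were low in Nr1d1, with Arntl mostly opposite, and the groups overlapped for all 10 clock genes, whereas 3.64% of all genes tested did not overlap. Clock, by contrast, measured 92.4 ± 7.02 CPM in Naturals (SD, n = 4) and 88.6 ± 5.05 in IVF (SD, n = 5), a spread at percentile 8.09.

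In the testes none of the 10 clock genes was called in any of the 4 comparisons, where 0.221% (E18.5), 0.199% (12 weeks), 0.00996% (39 weeks) and 0.914% (F2) of all genes were. The calls were few in either direction, with 0.0844% of genes lower in IVF at E18.5 and 0.0249% higher at 12 weeks. At E18.5, Clock measured 85.6, 89.2, 82.3 and 86.6 CPM in the 4 Naturals and ran from 101 to 131 CPM in the 6 IVF testes, with a median of 115. The groups did not overlap, as for 6.09% of all genes tested there. The log2 fold change of 0.42 (SE 0.08, edgeR adjusted p = 0.0332) lay under the 1.5-fold limit, where 1.17% of all genes passed the adjusted p alone, and with 1 library left out the adjusted p ran from 0.0244 to 0.0792. The Natural libraries of this tissue held 2904727 to 4869139 counts and the IVF libraries 8500054 to 15745480, and the part of depth was not tested. The GC trends of these groups did not overlap either, and with the trend removed the log2 fold change of Clock was 0.26 (SE 0.08, adjusted p = 0.216).

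At 12 weeks, Per2 measured 7.22, 9.86, 11.3, 8.71 and 9.95 CPM in Naturals and 7.10, 4.34, 6.23, 6.96 and 6.24 CPM in IVF. Every IVF testis lay below every Natural, as for 3.07% of all genes in either direction, although the closest values were 7.10 and 7.22 CPM. On the log2 scale, IVF minus Natural was -0.60 (SE 0.17) with an edgeR adjusted p of 0.117, and DESeq2's Wald test gave -0.60 with an adjusted p of 0.0292. In the F2 testis at the same age, Per2 measured 9.33 ± 0.84 CPM in Naturals (SD, n = 5) and 10.0 ± 1.58 in IVF (SD, n = 7), a log2 fold change of 0.10 (SE 0.11). At 39 weeks and in the F2 testis the groups overlapped for all 10 clock genes, whereas 3.32% and 1.93% of all genes there did not overlap.

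Arntl measured 3.93 ± 0.491 CPM in the 12-week Naturals (SD, n = 5) and 3.44 ± 0.583 in IVF (SD, n = 5), 3.73 ± 1.28 and 3.88 ± 0.445 at 39 weeks (SD, n = 4 and 6), and 4.32 ± 0.497 and 4.61 ± 0.74 in the F2 testis (SD, n = 5 and 7). Dbp measured 7.53 ± 2.06 and 7.95 ± 1.30 CPM at 12 weeks, 10.0 ± 1.49 and 7.61 ± 1.88 at 39 weeks, and 6.97 ± 1.13 and 7.21 ± 1.80 in the F2 testis. Neither gene had an unadjusted p under 0.05 in any testis comparison. Per1, the most abundant clock gene of the adult testis per kilobase, measured 236 ± 18.3 and 226 ± 20.1 CPM at 12 weeks, 247 ± 25.9 and 238 ± 22.9 at 39 weeks, and 259 ± 8.88 and 264 ± 24.2 in the F2 testis, with log2 fold changes from -0.06 to 0.02. At 39 weeks the log2 fold changes of the 10 genes lay between -0.40 (Dbp, SE 0.20) and 0.25 (Nr1d2, SE 0.27).

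The other genes of the clock loop, a list of 19 cryptochromes, ROR receptors, D-box factors, kinases and their partners, were tested for 17 in each liver. In the male liver 4 were called. Tipin, a partner of TIMELESS, rose by 1.25 (SE 0.25, adjusted p = 0.00125) on the log2 scale, and Hlf, the third PAR bZIP factor, rose by 0.74 (SE 0.20, adjusted p = 0.00872). Csnk1d, a kinase that acts on PER proteins, fell by 0.85 (SE 0.15, adjusted p = 0.000718). In the female liver 6 were called, 3 in each direction: Csnk1d rose by 0.63 (SE 0.12, adjusted p = 0.000547) and Cry2 by 0.83 (SE 0.25, adjusted p = 0.0121), while Rora, an activator of Arntl, fell by 0.74 (SE 0.12, adjusted p = 0.000104) and Tipin fell by 1.51 (SE 0.27, adjusted p = 0.000266). Median log2 fold changes over the list were 0.35 in males and -0.08 in females. None of the list was called in testis or ovary.

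Of 23 rhythmic outputs of the liver clock, 9 were called in the male liver and 8 in the female liver. In males 6 rose, led in order of p by Gys2, the liver glycogen synthase (1.395, SE 0.21, adjusted p = 0.000254), and Nampt, an enzyme of NAD synthesis (1.60, SE 0.30, adjusted p = 0.00117), and 3 fell, led by Slc45a3 (-1.88, SE 0.45, adjusted p = 0.0067) and Elovl3, a fatty acid elongase (-1.13, SE 0.30, adjusted p = 0.0104). In females 4 rose, led by Tspan4 (2.21, SE 0.48, adjusted p = 0.00269) and Por, the electron donor of cytochromes P450 (0.91, SE 0.23, adjusted p = 0.00418), and 4 fell, led by Nampt (-0.92, SE 0.19, adjusted p = 0.000878) and Leo1 (-1.21, SE 0.26, adjusted p = 0.00134). Median log2 fold changes were 0.84 and -0.06. Nampt, like Nr1d2, was higher in IVF males and lower in IVF females, with no overlap of groups in either liver. Groups did not overlap for 27% of all genes tested in the male liver and 29.4% in the female liver. Of these 23 outputs they did not overlap for 2 in males and 1 in females. The interaction term between the livers passed for 54% of all genes tested.

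Genes of 2 systemic cues that act on the liver clock, temperature and glucocorticoids, were listed beside these. Of 12 heat shock and cold inducible genes, 5 were called in the male liver, among them the chaperones Hsp90aa1 (1.52, SE 0.26, adjusted p = 0.000494) and Hspa8 (1.23, SE 0.25, adjusted p = 0.00145) and the cold inducible Cirbp (-0.71, SE 0.23, adjusted p = 0.0262). In the female liver 7 were called, among them Dnajb1 (0.86, SE 0.19, adjusted p = 0.00133), Cirbp (0.77, SE 0.18, adjusted p = 0.00207) and Dnaja1 (-0.61, SE 0.13, adjusted p = 0.00129). Median log2 fold changes were -0.03 and 0.22. Of 13 glucocorticoid responsive genes, Klf9 alone was called in males (1.03, SE 0.19, adjusted p = 0.000975), whereas in females Klf9 fell by 1.21 (SE 0.16, adjusted p = 3.76e-05) and Klf15 rose by 0.71 (SE 0.17, adjusted p = 0.00274). Median log2 fold changes were 0.99 and 0.13. The shares called in the 4 lists, like those of the clock genes, stand against backgrounds of 31.1% and 39.4%.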

How the data were processed

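RNA-seq of 72 mouse tissue libraries was analysed from the 7 deposited tables of raw counts per gene symbol. Per the labels, the submitters' processing notes name Trimmomatic 0.32, STAR 2.3.0e, featureCounts 1.5.0, DESeq2 and mm10. Of the low counts in a library, 60.8% to 94.6% were even, so the authors' tables count both mates of a read pair and a single pair adds 2 counts. Libraries were sequenced on 2 instruments, and which library ran on which is not given in the sources used here. No replicate pair of a group agreed within sampling noise (smallest mean chi-square per gene 1.39, at 2 counts a pair), so each library counted once.

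Groups were taken from the labels. For each tissue IVF was tested against Natural on all genes that passed filterByExpr with edgeR 4.0.16 in R 4.3.3 (TMM, robust quasi-likelihood fit, Benjamini-Hochberg adjustment). A called gene had an adjusted p under 0.05 and changed over 1.5-fold, and the interaction needed only the adjusted p. Levels are CPM on TMM-scaled library sizes, and log2 CPM used a prior count of 2. All 10 clock genes passed the filter in testis and ovary and 9 in the livers. Alternatives were DESeq2 1.42.0, its size factors, other filters, GC and length trends removed per library, a replicate block and leaving out each library. The clock genes, the other lists and the named genes were chosen with earlier results of these data known. All 10 clock genes are named, with the 2 called genes of smallest adjusted p in each direction from each other list in each liver, and the 5 genes most like Arntl and Dbp, except for genes that are not reported here. Gene coordinates are RefSeq on GRCm38 (the build called mm10) and promoters RefSeq on GRCm38.p6. Transcript GC content and length and the exon overlaps are from GENCODE on GRCm38. The fits were tested on simulated counts.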

Additional observations from a re-analysis of the deposited data

Results flagged for a closer look

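Within groups of 4 to 7 libraries, 11 of 139 groups tested by Dixon's criterion held 1 library far from the others, where chance gives about 1 in 20. In the livers, Nr1d2 in male liver IVF replicate 2 was 189.7 CPM against 86.8 to 107 in the other 4 IVF livers, Arntl in female liver IVF replicate 1 was 6.97 CPM against 0.152 to 2.55, and Npas2 in female liver Natural replicate 4 was 0.946 CPM against 0 to 0.129. Per2 in ovary Natural replicate 3 was 16.8 CPM against 26.4 to 28.1.

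In the E18.5 testis, Natural replicate 1 was apart for both Per3 (12.1 CPM against 28.6 to 31.1) and Nr1d1 (26.6 CPM against 18.3 to 18.7). Tef was 299.7 CPM in E18.5 Natural replicate 2 against 269 to 274, and 203 CPM in E18.5 IVF replicate 2 against 273 to 299. In the adult testes, Nr1d2 was 15.5 CPM in 12-week IVF replicate 4 against 18.9 to 19.9, Clock was 46.8 CPM in 39-week IVF replicate 4 against 27.7 to 30.6, and Per3 was 14.7 CPM in F2 testis Natural replicate 4 against 12.8 to 13.3.

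By the interaction term, the IVF against Natural difference was unlike in the male and the female liver for Nr1d2 (-2.05 on the log2 scale, female minus male) and Tef (1.71). The term passed for 54% of all 13073 genes tested. With the GC trend removed Tef no longer passed (0.86, edgeR adjusted p = 0.163), whereas Nr1d2 still did.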

How the results depend on the processing

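Of 1568 alternative values of the clock genes' log2 fold changes, 1468 kept their sign, 100 changed sign while not called and none changed sign while called, whereas 10 calls were lost and 9 gained. With no fold limit 1 clock gene (Clock) passed at E18.5, and DESeq2's Wald test called 1 (Per2) at 12 weeks. With 1 library left out, the clock genes called numbered 1 to 2 in the male liver, 2 to 4 in the female liver and 2 to 3 by the interaction. The gains in females (Clock and Dbp) and by the interaction (Dbp 2.03, adjusted p = 0.0478) came without female liver IVF replicate 1. The log2 fold change of Nr1d2 then ran from 0.85 to 1.22 in males and from -1.04 to -0.88 in females, and that of Tef in females from 0.97 to 1.54. Removing the GC trend left 0 clock genes called in the female liver, raised the pairs with Arntl that passed from 7 to 11, and leaving out the 2 farthest libraries left 0. With at least 10 counts in every library, Clock in the male liver was -0.60 (adjusted p = 0.0183). Without the 3 deepest female libraries, a choice made after seeing the data as was that of the 2 shallowest male libraries, 1 clock gene (Nr1d2) was called in the female liver, and without those 2 male libraries Per2 was lost. The clock genes above percentile 90 of spread numbered 1 at 39 weeks without Natural replicate 4 and 0 in the ovary without IVF replicate 2.

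Over all genes, the calls by edgeR and by DESeq2 were 34 and 135 in the E18.5 testis, 40 and 74 in the 12-week, 2 and 88 in the 39-week and 196 and 375 in the F2 testis. With no fold limit there were 181 in the E18.5, 150 in the 12-week and 345 in the F2 testis. The GC correction gave 1 at E18.5 and 1 at 39 weeks, and removing the length trend gave 3 in the E18.5 testis, 7 in the 12-week and 20 in the 39-week testis. Without a filter there were 7 at 39 weeks. In the male liver 3725 became 1490 with at least 10 counts and 1969 with the GC trend removed, in the female liver 4935 became 2199 with the GC trend removed, and the interaction's 7056 became 2885 and 4547. In the ovary DESeq2 gave 90, no filter 2, at least 10 counts 2 and the length correction 1.

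Samples with the same replicate number did not deviate together in every pair (r from -0.23 to 0.30), so the numbers were not taken to pair the samples. With a replicate block, Nr1d2 in the male liver was 1.05 (adjusted p = 0.0025) and Per2 0.98 (adjusted p = 0.0319), Nr1d2 in the female liver was -1.03 (adjusted p = 0.00134) and Tef 1.03 (adjusted p = 0.012), and no clock gene's call changed. The block moved all-gene calls to 2 in the E18.5, 8 in the 12-week and 4 in the 39-week testis, 3250 in the male liver and 4282 in the female liver. Genes such as Arntl and Npas2 that lie near the floor of a shallow liver library cannot be ranked there.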
